A study of Mus musculus with 10 samples.

Results

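The genes described here are 33 members of the fatty acid oxidation programme of the liver, chosen by symbol from the 24062 genes of a normalised expression table. They comprise the nuclear receptor gene Ppara and its coactivator Ppargc1a, 5 genes of fatty acid activation and mitochondrial entry, and 11 of mitochondrial beta-oxidation. The others are 6 genes of peroxisomal beta-oxidation, 2 of omega oxidation, 4 acyl-CoA thioesterases, the ketone body gene Bdh1, and 2 further targets of the receptor, Pdk4 and Vnn1. All 33 symbols matched a row, and all 33 passed the filter on low values, which asks for a value of 1 or more in 2 or more of the 10 libraries, as did 12648 genes in all.

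Poly-A selected RNA was sequenced from mouse liver and from liver tumours. Mice were fed a normal diet (ND) or a Western diet (WD) and were given carbon tetrachloride (CCl4), a hepatotoxin, or its oil vehicle. The groups were normal diet with oil, normal diet with CCl4, Western diet with oil, and Western diet with CCl4, each with 1 library at 12 weeks and 1 at 24 weeks. Each of these 8 libraries was a pool of livers from 4 mice, and no combination of diet, treatment and duration had a second pool. The remaining 2 libraries were tumours labelled hepatocellular carcinoma, from Western diet with CCl4 at 24 weeks. The labels give no strain, sex, age, CCl4 dose or time of day, and do not say whether both tumours grew in 1 mouse.

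PPAR-alpha is a nuclear receptor that fatty acids and fibrate drugs activate. It binds DNA as a heterodimer with the retinoid X receptor, at a direct repeat of a hexamer separated by 1 base, and in liver it raises genes for fatty acid uptake, oxidation and ketone body formation, most strongly in fasting. Mitochondria shorten most fatty acids, peroxisomes shorten very long chains, and omega oxidation by CYP4A enzymes starts from the other end of the chain. Thioesterases split acyl-CoA back into free fatty acid and coenzyme A.

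That repeat was searched for in the RefSeq promoters of build GRCm38.p6, which cover 250 bases before to 50 after the annotated start and were matched for 26 of the 33 members (29 promoters). The motif was AGGTCANAGGTCA on either strand, with reverse complement TGACCTNTGACCT. No member promoter held it exactly or with at most 1 mismatch, against 0.0481% and 0.644% of all genes with a promoter. With at most 2 mismatches, 2 of the 26 members held it, or 7.69%, against 4.40% of 27025 genes. They were Acot4, a peroxisomal thioesterase, and Slc25a20, the carnitine-acylcarnitine carrier of the inner mitochondrial membrane. Both are shown because they are the only matches, with the match in capitals. The first is the 250 bases upstream of the Acot4 start (chr12:84038129-84038378, plus strand), with the match at bases -13 to -1. The second is a stretch of 30 bases around the Slc25a20 match (chr9:108662134-108662163, plus strand), at bases 7 to 19 counted from the start.
Acot4: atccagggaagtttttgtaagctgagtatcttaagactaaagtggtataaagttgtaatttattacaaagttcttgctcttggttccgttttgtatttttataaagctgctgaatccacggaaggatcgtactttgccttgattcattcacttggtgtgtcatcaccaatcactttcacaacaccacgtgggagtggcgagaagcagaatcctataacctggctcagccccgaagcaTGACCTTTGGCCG
Slc25a20: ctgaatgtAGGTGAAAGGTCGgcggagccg
A match is a description of letters in this window. Acot4 was among the members that were higher with CCl4 on normal diet at an adjusted p under 0.05. Slc25a20 was higher at both durations but did not pass that threshold in the deposited scaling. It passed with quantile normalization and with scaling by library totals.

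The libraries held 23206229 to 30137802 reads. Values are normalised reads, and they are given in the order 12 and 24 weeks. In the oil pools on normal diet the member with the highest level per kilobase of exon was Acaa2, the last thiolase of mitochondrial beta-oxidation, at 687 and 681 normalised reads per kilobase, and the lowest was Acot3 at 0.645 and 1.13. Changes are log2 fold changes of value + 1 with the standard error of a limma fit with a mean per exposure group and an effect of duration, which leaves 3 residual degrees of freedom. Each change sets 2 pools against 2. Its adjusted p weighs it by how unevenly the groups differed between 12 and 24 weeks, once the shared effect of duration is taken out. That spread is pooled over the groups, and mice within a pool add nothing to it. A gene is called at an adjusted p (Benjamini-Hochberg over the 12648 genes) under 0.05.

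Some markers of cell type, feeding and time of day moved with the groups. Albumin (Alb) was at least 54802 in every library. The summed level of 20 hepatocyte genes was 185673 to 196381 with normal diet and oil, and 111219 to 124637 with normal diet and CCl4. It was 154114 to 174293 with Western diet alone, 104076 to 147084 with both exposures, and 115164 and 326627 in tumours 1 and 2. The clock output gene Dbp was at 1.46 and 2.10 with normal diet and oil, and at 1.06 in tumour 1. It lay between 38.4 and 85.3 in the other 7 libraries, so the pools that serve as the baseline of 3 comparisons stood apart in this gene. In bulk tissue, fewer cells of a type and less RNA per cell cannot be told apart.

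The toxin without the Western diet was described by CCl4 against oil in mice on normal diet. Of the 33 members, 13 rose and none fell. Among all tested genes 26% were called and 15.3% were called higher. The median change of the members was 0.35, and that of all tested genes was 0.00. Of the rises, 8 were at least 1.18 on the log2 scale, and they were Acot2, Acot3, Vnn1, Cyp4a14, Acot4, Cyp4a10, Cpt1a and Acaa1b. All 11 genes of mitochondrial beta-oxidation stayed uncalled, with changes from -0.27 to 0.35.

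Ppara, the receptor itself, was at 250 and 174 normalised reads with oil and at 468 and 383 with CCl4 on normal diet. With Western diet it was at 309 and 257 with oil and at 399 and 364 with CCl4. Both CCl4 pools on normal diet lay above all 4 oil pools. The rise on normal diet was 1.02 ± 0.13 (limma adjusted p = 0.00107). Ppargc1a, a coactivator of the receptor and of mitochondrial biogenesis, was low throughout. On normal diet it was at 13.2 and 11.5 with oil and at 7.995 and 13.4 with CCl4, and at 14.9 and 12.9 against 22.7 and 10.3 on Western diet. These groups overlapped, and no comparison called it.

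Cpt1a, the carnitine palmitoyltransferase that controls the entry of long-chain fatty acids into mitochondria, was at 339 and 278 with oil and at 785 and 647 with CCl4 on normal diet. Its values on Western diet were 435 and 425 with oil and 647 and 682 with CCl4. Every CCl4 pool lay above every oil pool. The rise on normal diet was 1.21 ± 0.14 (limma adjusted p = 0.000730), with the same size of 1.21 in both pairs. Crat, a carnitine acetyltransferase, also rose on normal diet, by 0.95 ± 0.19 (limma adjusted p = 0.00768). Cpt2, the carnitine palmitoyltransferase of the inner membrane, stayed at 176 to 214 in all 8 pools. Acsl1, the main acyl-CoA synthetase of hepatocytes, was at 1243 and 1006 with oil and at 1142 and 708 with CCl4 on normal diet, a change of -0.31 ± 0.16 that was not called.

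In the deposited scaling the mitochondrial spiral itself moved little. The ratio of the highest to the lowest of the 8 pools ran from 1.22 to 1.53 over its 11 genes. Acaa2 was at 1042 and 1033 with oil and at 942 and 785 with CCl4 on normal diet. It was at 1177 and 1011 with Western diet alone and at 1107 and 770.2 with both exposures. The CCl4 pools on normal diet lay below the oil pools by less than the fit could call (-0.27 ± 0.15, limma adjusted p = 0.228). Under a scaling by library totals, 7 of the 11 genes (Acadl, Acadm, Hadha, Hadhb, Hadh, Eci1 and Decr1) were called higher with CCl4 on normal diet, and quantile normalization called the same number. Library totals moved the median change of all genes to 0.22 and that of these 11 to 0.43. In the deposited scaling these medians were 0.00 and 0.18. Quantile normalization put the median change of all genes at -0.05. The share of all tested genes called under either of these other scalings is not given here.

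In the peroxisome, the thiolase gene Acaa1b was at 1075 and 1061 with oil and at 2521 and 2338 with CCl4 on normal diet. On Western diet it was at 1443 and 1038 with oil and at 1745 and 2030 with CCl4. The CCl4 pools lay above the oil pools of either diet. The rise on normal diet was 1.18 ± 0.19 (limma adjusted p = 0.00317). Its paralog Acaa1a, at 165 and 158 with oil and 235 and 181 with CCl4, was not called (0.36 ± 0.13). Ehhadh, the bifunctional enzyme of the peroxisomal spiral, was at 466 and 331 with oil and at 832 and 763 with CCl4 on normal diet, against 607 and 541 and then 626 and 740 on Western diet. Its rise on normal diet was 1.02 ± 0.17. Hsd17b4, the other bifunctional enzyme, rose by 0.43 ± 0.12, and this call was lost without any 1 of the pools on normal diet or of the Western diet pools with oil. Eci2, an enoyl-CoA isomerase, and Decr2, a dienoyl-CoA reductase, were not called.

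Cyp4a10 and Cyp4a14 are fatty acid omega hydroxylases and standard reporters of the receptor in mouse liver. Cyp4a10 was at 158 and 92.5 with oil and at 285 and 295 with CCl4 on normal diet. With Western diet it was at 380 and 357 with oil and at 368 and 339 with CCl4, so both oil pools on normal diet lay below the other 6 pools. The rise with CCl4 on normal diet was 1.25 ± 0.18 (limma adjusted p = 0.00223). Cyp4a14 was at 193 and 129 with oil and at 306 and 551 with CCl4 on normal diet. Its Western diet values were 312 and 172 with oil and 240 and 370.3 with CCl4, and those groups overlapped. Its rise on normal diet was 1.37 ± 0.37 (limma adjusted p = 0.0265), with 0.66 at 12 weeks and 2.08 at 24 weeks. DESeq2 gave it an adjusted p of 0.0575, and over all alternatives the adjusted p ran up to 0.470. Its call, and that of Crat, was lost without the 24 week pool with oil or the 24 week pool with CCl4.

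The thioesterases held the 2 largest rises of the programme on normal diet. Acot2, a mitochondrial form, was at 2.88 and 2.88 with oil and at 16.0 and 24.1 with CCl4 on normal diet. It was at 6.88 and 8.56 with Western diet alone and at 9.33 and 15.0 with both exposures. Both oil pools on normal diet lay below the other 6 pools, and both CCl4 pools on that diet lay above them. The rise on normal diet was 2.41 ± 0.19 (limma adjusted p = 0.000162).

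Acot3, a peroxisomal form, was at 2.22 and 3.89 with oil and at 19.5 and 19.3 with CCl4 on normal diet. Its values on Western diet were 11.4 and 6.64 with oil and 9.33 and 10.5 with CCl4. The order of groups was that of Acot2, with overlap between the Western diet groups. The rise on normal diet was 2.36 ± 0.27 (limma adjusted p = 0.000759). Acot4 was at 18.0 and 20.5 with oil and at 55.4 and 40.3 with CCl4 on normal diet, and at 36.0 and 29.1 against 28.5 and 32.1 on Western diet. It rose by 1.26 ± 0.17 on normal diet (limma adjusted p = 0.00181). Acot1, the cytosolic form, was at 27.1 and 23.4 with oil and at 33.7 and 35.4 with CCl4 and was not called (0.44 ± 0.18).

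These 4 genes lie side by side on the plus strand of chromosome 12 in GRCm38 (GENCODE annotation): Acot2 at 83987861-83993873, Acot1 at 84009490-84018371, Acot4 at 84038379-84048601 and Acot3 at 84052144-84060402. Parts of them are near-identical. Of all stretches of 50 bases in the exons of Acot2, 27.7% also occur in another gene, mostly Acot1, and the share was 19.2% for Acot1, 19.1% for Acot3 and 4.53% for Acot4. The share was 30.5% for Acaa1b (shared with Acaa1a), 29.8% for Cyp4a10 (mostly with Cyp4a32) and 0.235% for Cyp4a14. How reads from such stretches were assigned is not given in the sources used here, so the values of these paralogs are uncertain to that extent.

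Bdh1 makes beta-hydroxybutyrate from acetoacetate. It was at 239 and 187 with oil and at 383 and 341 with CCl4 on normal diet, and at 330.0 and 308 against 457 and 393 on Western diet. The 4 groups of pools did not overlap, with the oil pools on normal diet lowest and the pools with both exposures highest. It rose by 0.77 ± 0.12 with CCl4 on normal diet (limma adjusted p = 0.00254). Vnn1, a pantetheinase that recycles coenzyme A precursors, was at 36.4 and 28.3 with oil and at 131 and 146 with CCl4 on normal diet. On Western diet it was at 17.0 and 24.6 with oil and at 56.5 and 110 with CCl4. Every CCl4 pool lay above every oil pool. The rise on normal diet was 2.07 ± 0.25 (limma adjusted p = 0.000976). Pdk4, the kinase that shuts pyruvate dehydrogenase when fat is burned, was at 21.3 and 18.6 with oil and at 23.3 and 31.7 with CCl4 on normal diet and was not called there.

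**Figure D1:**
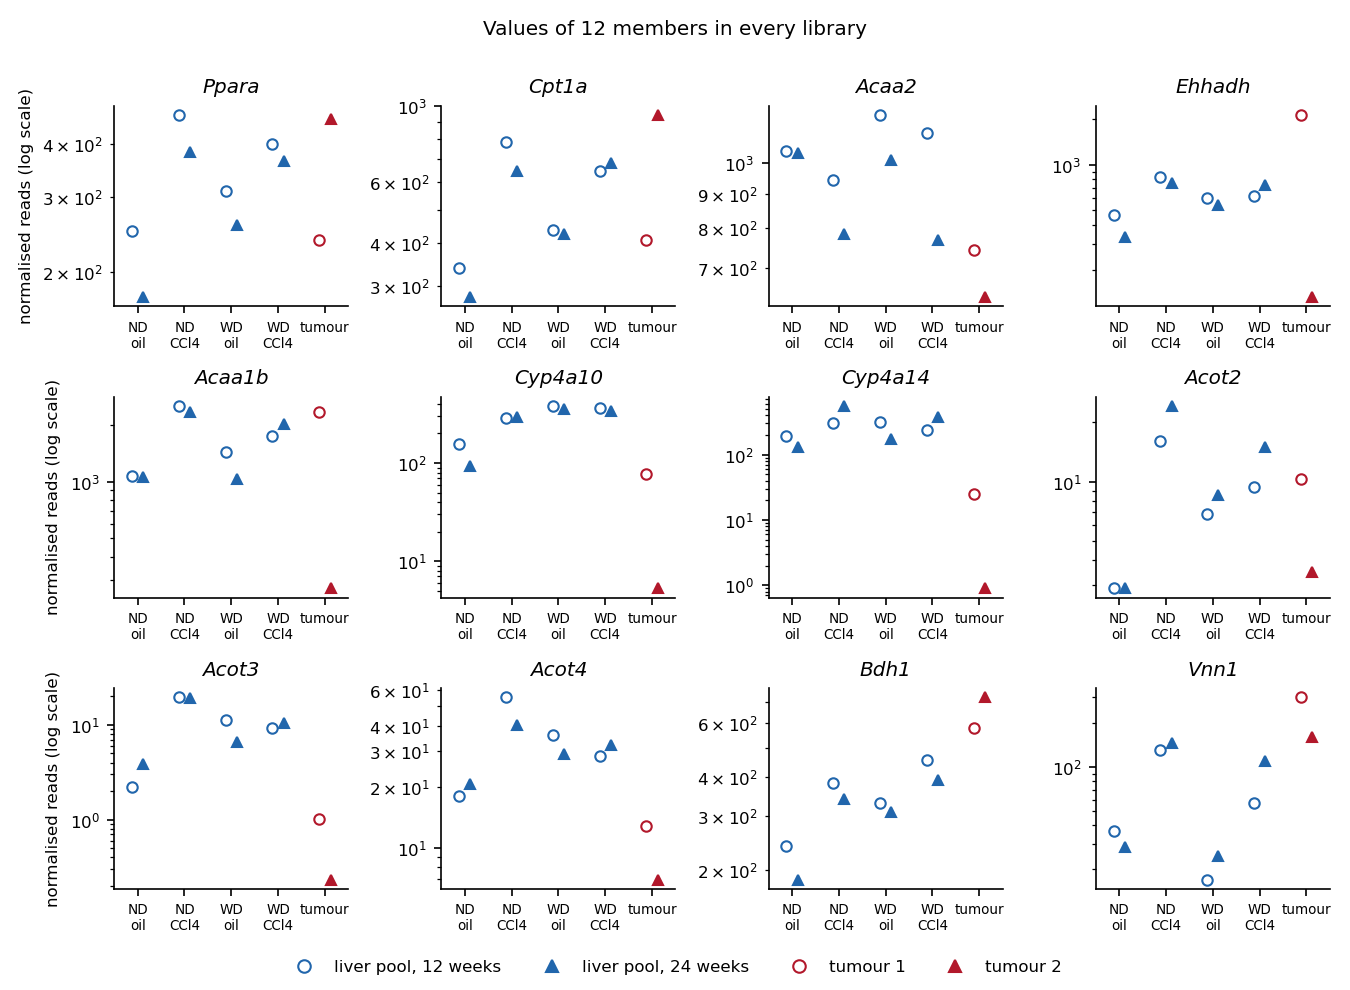
Normalised reads (log scale, a separate axis for each gene) of 12 members in every library, with the 4 groups of liver pools and the tumours along the horizontal axis. Open circles are the pools of 12 weeks or tumour 1, and triangles are the pools of 24 weeks or tumour 2. Acot2 lies at 2.88 and 2.88 with normal diet and oil and at 16.0 and 24.1 with normal diet and CCl4, and tumour 2 holds the lowest value of Ehhadh, Acaa1b, Cyp4a10, Cyp4a14, Acot3 and Acot4.

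In the same comparison, 9 of 20 hepatocyte markers fell and none rose, while 11 of 15 macrophage and 13 of 14 stellate cell and fibroblast markers rose. Of 19 clock genes 11 rose and 5 fell, and Dbp rose by 4.25 ± 0.21. The summed level of 9 fed state genes was 14364 to 14584 with oil and 50350 to 54331 with CCl4. Most of that sum was 1 gene, Scd1, at 12830 and 12736 with oil and at 47692 and 52024 with CCl4. Of these 9 genes 5 rose and 1 fell, and of 8 fasted state genes 1 rose and 1 fell. Rises were also called for 4 of 9 cholangiocyte, 5 of 8 endothelial and 7 of 9 proliferation markers, and for both tested adipocyte genes, Cidec and Cfd. The part of these shifts in the members' changes was not tested. The defining adipocyte genes Adipoq and Lep were at or near 0 in every library.

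The other genes of the pathway went both ways. Of 101 tested genes from a list of 104, 21 rose and 18 fell with CCl4 on normal diet. Of 22 further targets of the receptor, 10 rose and none fell. Among them Fgf21, a hormone of the fasting response, rose by 2.85 ± 0.55 (limma adjusted p = 0.00772) and the fatty acid transporter Cd36 by 2.47 ± 0.11 (limma adjusted p = 1.55e-05). Cd36 was at 49.5 and 66.7 with oil and at 281 and 370 with CCl4. Of 21 other peroxisomal genes 3 rose and 6 fell, and of 22 genes listed with mitochondrial oxidation 4 rose and 6 fell. Aldh3a2, the fatty aldehyde dehydrogenase that follows omega hydroxylation, rose by 1.80 ± 0.17. Nudt7, a coenzyme A diphosphatase rather than an oxidation enzyme, fell by 1.67 (SE 0.37) and is counted in the mitochondrial list.

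Western diet alone was compared with normal diet, both with oil. Of the 33 members, 4 rose and none fell, and among all tested genes 1.99% were called and 1.45% were called higher. Cyp4a10 rose by 1.60 ± 0.18 (limma adjusted p = 0.00599) and Acot3 by 1.29 ± 0.27 (limma adjusted p = 0.0499). Acot2 rose by 1.16 ± 0.19 (limma adjusted p = 0.0208) and Bdh1 by 0.59 ± 0.12 (limma adjusted p = 0.0407). All 4 were higher at both durations, and Acot3 was higher by 1.94 at 12 weeks and by 0.64 at 24 weeks. Ppara and Cpt1a were higher in both pairs without a call, at 0.43 ± 0.13 and 0.49 ± 0.14, and Vnn1 was lower in both, at -0.62 ± 0.25.

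None of these 4 calls was kept whichever pool was left out. Without either Western diet pool with oil, none of the members was called, and without the 24 week oil pool on normal diet 1 was. Without the 12 week oil pool on normal diet, or without either CCl4 pool on normal diet, 2 were. Beside these, 4 of 15 macrophage and 6 of 14 stellate cell and fibroblast markers rose, and no hepatocyte marker was called. Of 19 clock genes 9 rose and none fell, and Dbp rose by 4.10 ± 0.21. The part of these shifts was not tested. Of the other pathway genes 3 rose and none fell. The fatty acid hydroxylase gene Cyp4a31 rose by 1.84 ± 0.25, the peroxisomal fatty acid transporter Abcd2 by 1.10 ± 0.16, and the liver glycogen synthase Gys2 by 0.91 ± 0.10.

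Both exposures together were compared with neither. Of the 33 members, 10 rose and none fell, and among all tested genes 25.9% were called and 15.7% were called higher. Acot2 rose by 1.73 ± 0.19 (limma adjusted p = 0.000526), Cyp4a10 by 1.54 ± 0.18 (0.000728) and Acot3 by 1.46 ± 0.27 (0.00547). Vnn1 rose by 1.27 ± 0.25 (0.00737) and Cpt1a by 1.11 ± 0.14 (0.000831). Bdh1 rose by 1.001 ± 0.12 (0.000643), Ppara by 0.87 ± 0.13 (0.00179) and Acaa1b by 0.82 ± 0.19 (0.0139), each with the limma adjusted p in parentheses. Ehhadh and Acot4 rose as well, by 0.79 and 0.63. All 10 were higher in both pairs. Without the 24 week oil pool on normal diet the calls of Vnn1, Acaa1b, Ehhadh and Acot4 were lost. Without the 24 week pool with both exposures those of Acaa1b, Ehhadh and Acot4 were. Acaa1b and Acot4 were also lost without the 12 week oil pool on normal diet, and Acot4 without either Western diet pool with oil. No gene of mitochondrial beta-oxidation was called, with changes from -0.17 to 0.36. Of the 11, 6 were called higher with quantile normalization and 8 with library totals. The median change of all tested genes was -0.02 in the deposited scaling, -0.06 with quantile normalization and 0.23 with library totals. The share of all tested genes called under those other scalings is not given here, so these counts are not told apart from a move of all genes.

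Beside these, 7 of 20 hepatocyte markers fell, 12 of 15 macrophage markers rose and Dbp rose by 4.36 ± 0.21, and their part was not tested. Of the other pathway genes 19 rose and 12 fell. Cyp4a31 rose by 2.22 ± 0.25 and Cd36 by 2.07 ± 0.11. The male-type omega hydroxylase gene Cyp4a12a fell by 2.04 (SE 0.27), and Nudt7 fell by 2.07 (SE 0.37). The comparisons described so far share the 2 oil pools on normal diet, so their calls are not separate evidence.

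**Figure D2:**
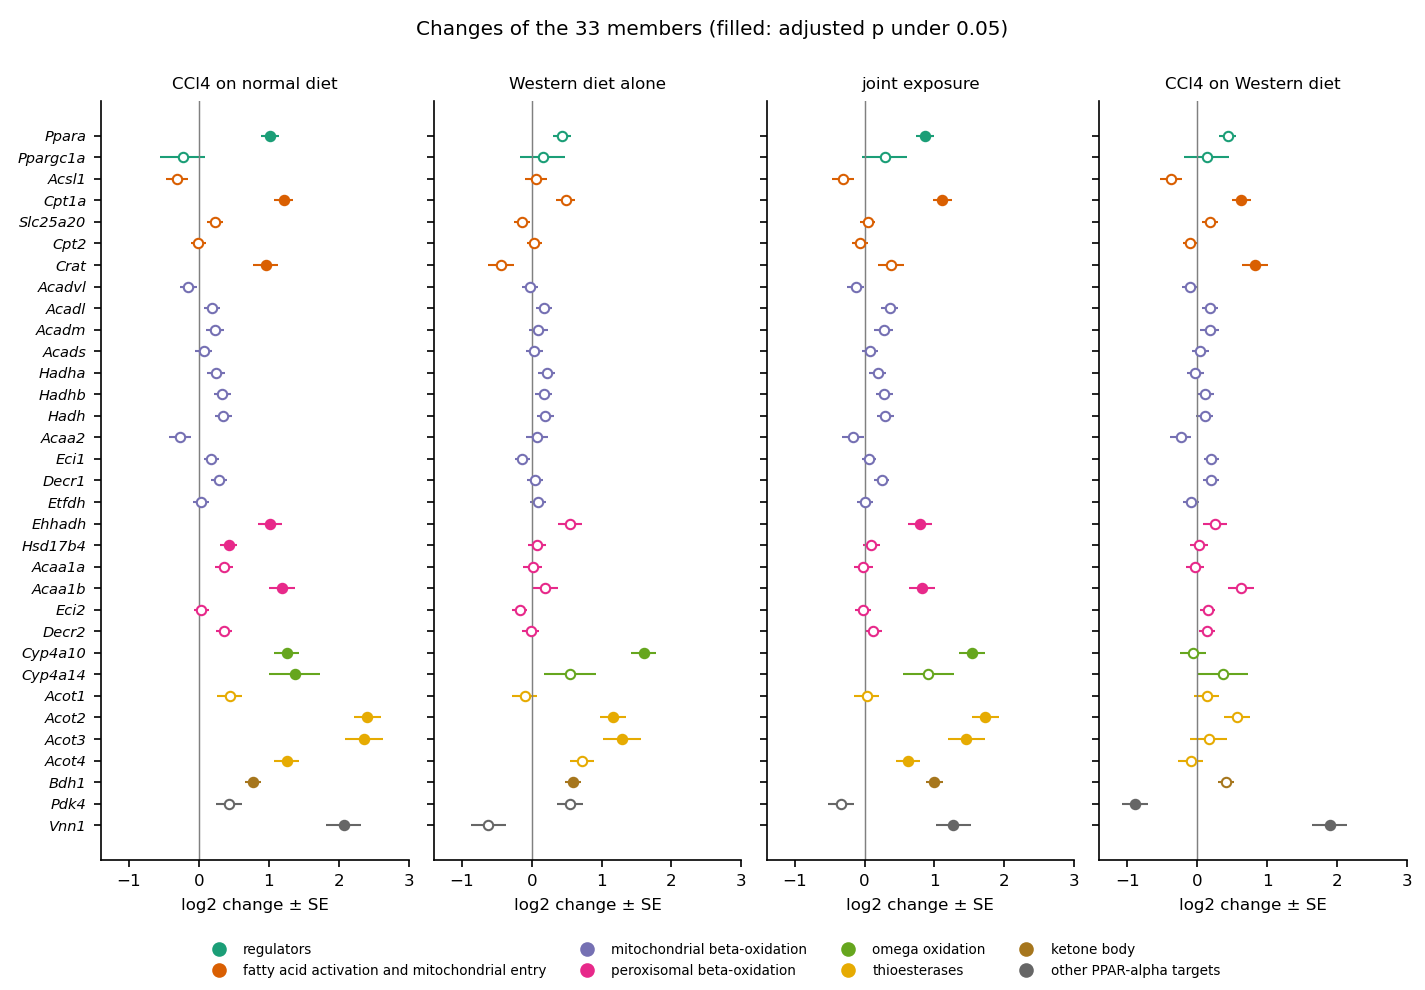
Log2 change (horizontal axis, with standard error) of each of the 33 members in 4 comparisons, coloured by role, with called members filled. The thioesterases Acot2 and Acot3 lie farthest to the right with CCl4 on normal diet (2.41 and 2.36), and the 11 genes of mitochondrial beta-oxidation stay between -0.27 and 0.36 in all 4 comparisons.

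CCl4 was also compared with oil on Western diet, which does not use the oil pools on normal diet. Here 3 members rose and 1 fell, and among all tested genes 6.82% were called, 4.29% higher and 2.52% lower. Vnn1 rose by 1.89 ± 0.25 (limma adjusted p = 0.00572), Crat by 0.83 ± 0.19 (limma adjusted p = 0.0351) and Cpt1a by 0.63 ± 0.14 (limma adjusted p = 0.0320). Pdk4 fell by 0.89 (SE 0.19, limma adjusted p = 0.0299), from 24.1 and 36.4 with oil to 12.9 and 18.7 with CCl4. Crat was at 51.9 and 35.0 with oil and at 68.1 and 85.6 with CCl4, against 60.7 and 56.1 and then 111 and 118 on normal diet.

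Without the 24 week Western diet pool with oil, none of these members was called. Without the 12 week pool with oil 1 was (Crat), and without the 24 week pool with both exposures 1 was (Vnn1). Beside these, 1 of 20 hepatocyte markers fell, and 7 of 15 macrophage and 6 of 14 stellate cell and fibroblast markers rose. Of 19 clock genes 4 fell and none rose, while Dbp changed by 0.27 ± 0.21, which was not called. The part of these shifts was not tested. Of the other pathway genes 6 rose and 7 fell. Cd36 rose by 1.63 ± 0.11 and Pparg, the relative of the receptor that drives fat storage, by 1.35 ± 0.25. Bdh2, a cytosolic dehydrogenase, fell by 1.38 (SE 0.24) and Hacl1, the peroxisomal lyase of alpha-oxidation, fell by 1.37 (SE 0.20).

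Whether CCl4 acted differently on the 2 diets was tested as an interaction, the CCl4 change on Western diet minus that on normal diet. No member was called by limma, and 0.103% of all tested genes were. At an unadjusted p under 0.05, 9 members passed, against 8.94% of all tested genes, and all 9 had a negative interaction. Acot3 had an interaction of -2.20 ± 0.38 (limma adjusted p = 0.1004), Acot2 of -1.84 ± 0.27 (limma adjusted p = 0.0564) and Acot4 of -1.35 ± 0.25 (limma adjusted p = 0.131). Pdk4 had -1.32 ± 0.27 (limma adjusted p = 0.159) and Cyp4a10 -1.32 ± 0.26 (limma adjusted p = 0.1498). On the recovered reads, edgeR called Acot2, and DESeq2 called all of these 5. Without the 12 week oil pool on normal diet limma called Cyp4a10 and Pdk4, and without the 24 week pool with both exposures it called Acot2 and Acot4.

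The changes behind these differences differed at each duration. With CCl4 on normal diet Cyp4a10 was higher by 0.85 at 12 weeks and by 1.66 at 24 weeks, and on Western diet the pairs differed by -0.05 and -0.07. Acot3 was higher by 2.67 and 2.05 on normal diet and changed by -0.26 and 0.58 on Western diet. Vnn1 was higher by 1.82 and 2.32 on normal diet and by 1.67 and 2.11 on Western diet. Dbp also had an interaction, of -3.99 ± 0.30 (limma adjusted p = 0.00471), whose part was not tested.

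**Figure D3:**
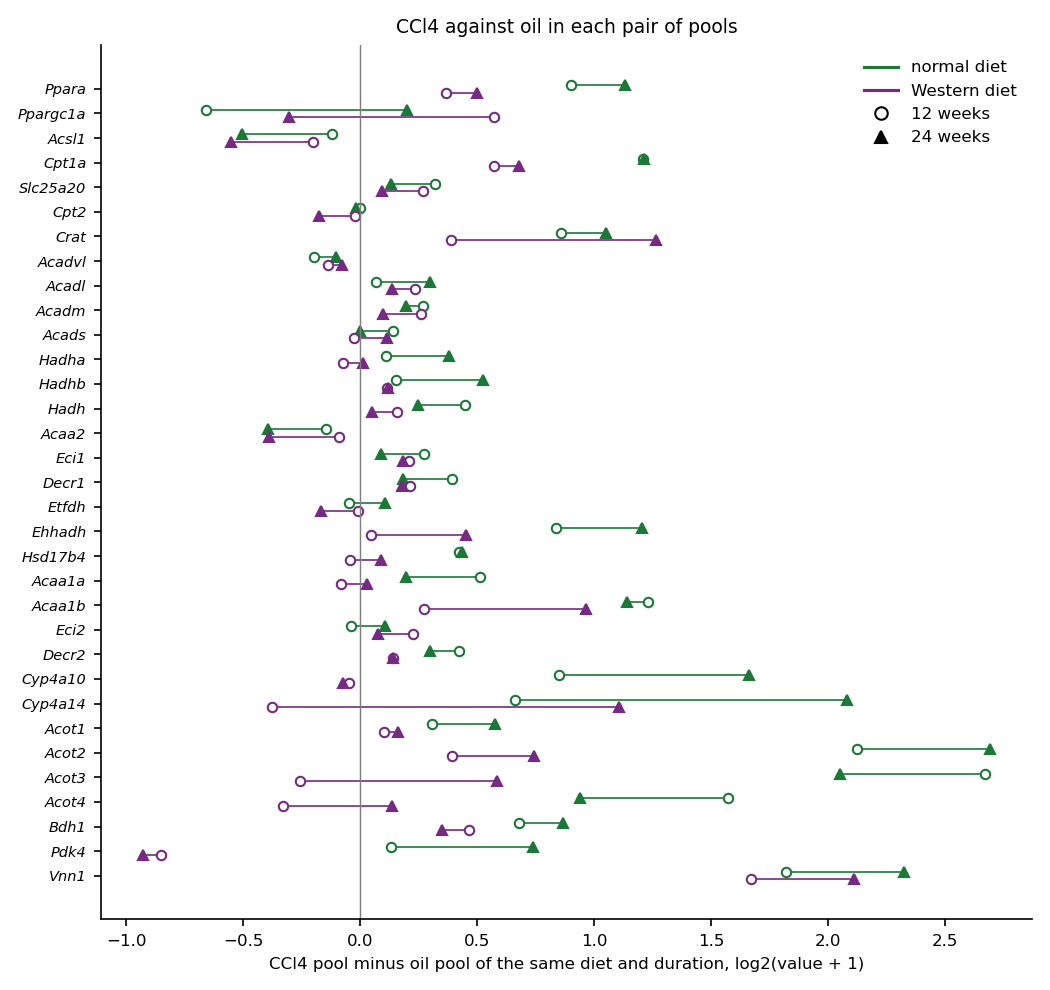
Difference between the CCl4 pool and the oil pool of the same diet and duration on the log2(value + 1) scale (horizontal axis) for each of the 33 members, in green for normal diet and purple for Western diet. Circles are 12 weeks and triangles 24 weeks. For Acot3 the normal diet pairs lie at 2.67 and 2.05 and the Western diet pairs at -0.26 and 0.58, while for Vnn1 all 4 pairs lie between 1.67 and 2.32.

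Western diet added to CCl4 was compared with CCl4 on normal diet. No member was called, and 0.0474% of all tested genes were. At an unadjusted p under 0.05, 9 members passed, against 7.03% of all tested genes, while edgeR and DESeq2 called none. All 9 were lower with the diet, among them Acot3 (-0.91 ± 0.27), Vnn1 (-0.80 ± 0.25) and Pdk4 (-0.77 ± 0.19), with limma adjusted p-values of at least 0.398. Of the other pathway genes 1 was called. It was Cidea, a lipid droplet protein, which fell by 4.06 (SE 0.28, limma adjusted p = 0.00247) and is named because it was the sole call there. Cidea was at 16.4 and 34.4 in the CCl4 pools on normal diet and below 1 in the other 8 libraries, and it was also the sole other pathway gene called in the interaction (-4.00 ± 0.40, limma adjusted p = 0.00832).

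Duration was compared over the 4 combinations, 24 against 12 weeks. No member was called, and of all tested genes 0% were. At an unadjusted p under 0.05, 10 members passed, against 11.7% of all tested genes. On the recovered reads edgeR called none and DESeq2 called 1, Acsl1. The sign was negative for 28 of the 33, with a median of -0.12 against 0.00 for all tested genes. Acsl1 had the most negative value, -0.42 ± 0.11 (limma adjusted p = 0.334), and Acot2 the most positive, 0.37 ± 0.13 (limma adjusted p = 0.372).

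The 2 tumours were compared with the pools of Western diet with CCl4 in a fit over all 10 libraries. They differed strongly from each other, and this difference enters the spread of this comparison together with that of the liver pools. Only Acot3 was called, and it fell by 2.79 (SE 0.37, limma adjusted p = 0.0209). Among all tested genes 0.972% were called and 0.506% were called lower. Acot3 was at 1.02 in tumour 1 and 0.233 in tumour 2, or 26 and 6 reads, below the 9.33 and 10.5 of the exposed pools and below all 8 pools. It was not called when any 1 of the liver pools was left out. At an unadjusted p under 0.05, 12 members passed, against 16.7% of all tested genes. On the recovered reads edgeR called 1 and DESeq2 7, of which 5 were lower. Leaving out either tumour leaves 1 sample in that group. The lone tumour is then assumed to vary like the pools, so the number of members called is not given for those fits.

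Since the tumours differ, each is described by itself, with no test. Tumour 1 was at least 2-fold below the lowest of the 8 pools for 3 members (Cyp4a14, Acot1 and Acot3), against 2.67% of all tested genes. It was at least 2-fold above the highest pool for Ehhadh and Vnn1, against 3.29%. Tumour 2 was at least 2-fold below the lowest pool for 11 members, against 3.55%. Those were Eci1, Etfdh, Ehhadh, Acaa1a, Acaa1b, Cyp4a10, Cyp4a14, Acot1, Acot3, Acot4 and Pdk4. None was at least 2-fold above the highest pool in tumour 2, against 2.97%. By any margin, tumour 1 was below all 8 pools for 14 members and above all for 10, against 27.7% and 25.5% of all tested genes. Tumour 2 was below all 8 pools for 23 members, against 21.3%, and above all for 3, against 25.5%.

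All 6 peroxisomal genes were below all 8 pools in tumour 2, against 21.3% of all tested genes. In tumour 1 Ehhadh was above all pools, Acaa1a and Eci2 were below all pools, and the other 3 lay within the range of the pools. Ehhadh was at 2141 in tumour 1 and 133 in tumour 2, 16.1-fold apart, with all 8 pools between 331 and 832. Acaa1b was at 2349 and 272, 8.65-fold apart, with the pools from 1038 to 2521. The highest value of Ehhadh and the lowest were therefore both tumours. Hsd17b4 was at 589 and 254, Acaa1a at 110 and 72.6, and Eci2 at 121 and 104.

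Both omega hydroxylases were below all 8 pools in both tumours. Cyp4a10 was at 78.2 in tumour 1 and 5.28 in tumour 2, with the lowest pool at 92.5. Cyp4a14 was at 24.5 and 0.893, or 627 and 23 reads, with the lowest pool at 129. The thioesterase Acot1 was at 7.19 and 2.79, with the lowest pool at 18.6, and Acot4 was at 12.8 and 6.95. Acot2, at 10.3 and 3.49, lay within the range of the pools in both.

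In mitochondrial beta-oxidation all 11 genes were higher in tumour 1 than in tumour 2, by 1.17 to 3.43-fold. The share of all tested genes higher in tumour 1 by any margin is not given here. At least 2-fold higher in tumour 1 were 4 of the 11, against 12% of all tested genes. Tumour 1 was above all pools for 7 of them, against 25.5% of all tested genes. Tumour 2 was below all pools for 8, against 21.3%. Acaa2 was at 743 and 633, below every pool in both. Eci1, the isomerase for unsaturated chains, was at 191 and 55.7.

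Cpt1a, Ppara, Ppargc1a and Bdh1 were higher in tumour 2. Cpt1a was at 408 in tumour 1 and 942 in tumour 2, the highest of all 10 libraries, and Ppara was at 237 and 457. Ppargc1a was at 7.78 and 11.4. Bdh1 was at 579 and 727. Vnn1, at 299 and 159, and Pdk4, at 26.2 and 4.81, were higher in tumour 1. Bdh1 and Vnn1 were above all 8 pools in both tumours. Tumour 1 was at least 2-fold above tumour 2 for 13 members, against 12% of all tested genes, and tumour 2 above tumour 1 for Cpt1a alone, against 8.97%.

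**Figure D4:**
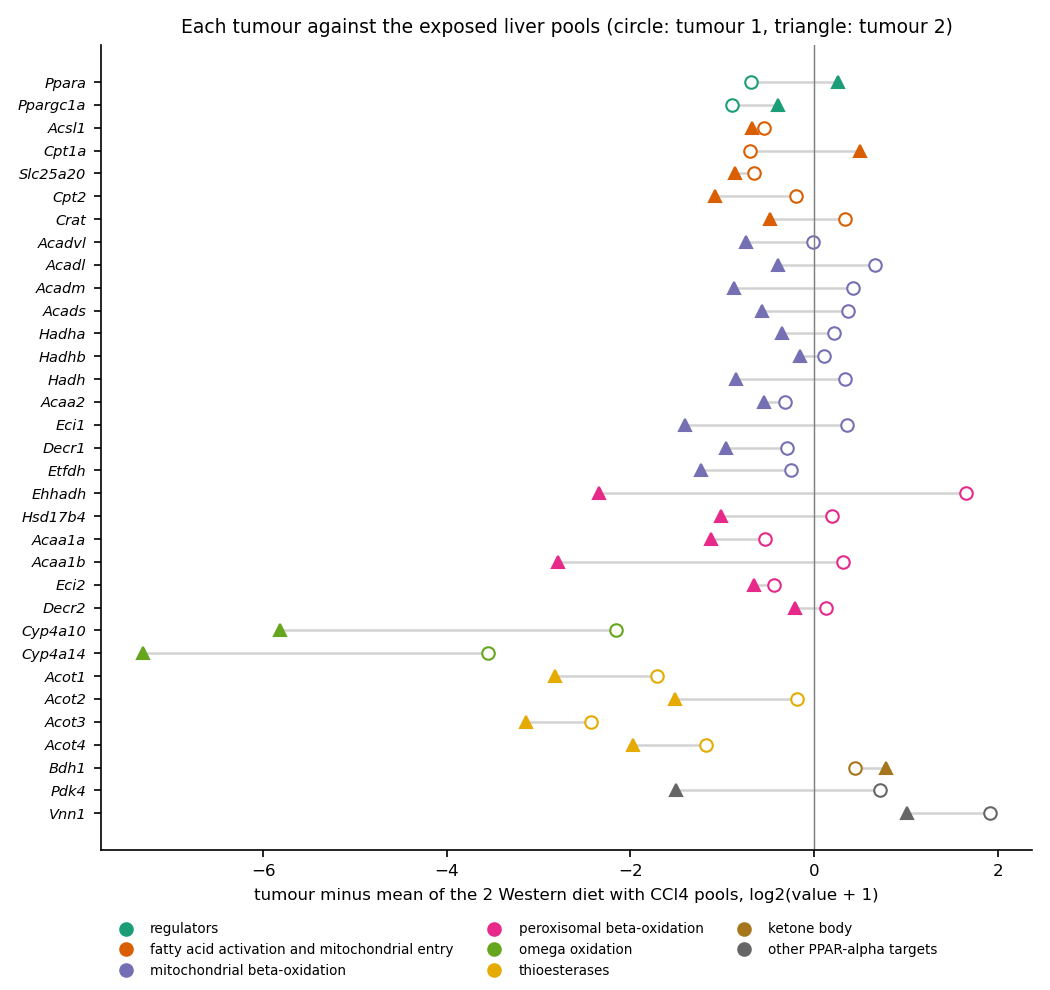
Each tumour minus the mean of the 2 pools of Western diet with CCl4 on the log2(value + 1) scale (horizontal axis) for the 33 members, coloured by role, with a circle for tumour 1, a triangle for tumour 2 and a grey line between them. Cyp4a14 lies lowest in both, at -3.55 and -7.30, Ehhadh lies at 1.65 in tumour 1 and -2.35 in tumour 2, and Vnn1 and Bdh1 lie above 0 in both.

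Markers also set the tumours apart. The hepatocyte sum was 115164 in tumour 1 and 326627 in tumour 2, so tumour 2 held the lower value of most members beside the highest hepatocyte sum of all libraries. Dbp was at 1.06 and 85.3, and the proliferation list summed to 141 and 91.3, against 34.3 to 80.2 in the pools. Their part in the tumour values was not tested. Of the other pathway genes, 2 were called lower in the tumours. Mgll, a monoacylglycerol lipase, fell by 1.33 (SE 0.22, limma adjusted p = 0.0476), and Acot7, another thioesterase, fell by 1.06 (SE 0.15, limma adjusted p = 0.0267).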

How the data were processed

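Liver was frozen, its RNA was extracted, and poly-A libraries took 200 ng of RNA each, per the labels' protocols. STAR and mm10 are named, with no version, in the submitters' processing notes. How reads were counted, on which annotation, and how values were scaled is not given in the sources used here. What the authors deposited is a normalised signal per gene. Within 0.01 reads, 100% of its values were whole reads times 1 constant per library, so the reads were recovered from the signal the authors deposited. Scaling by TMM factors computed on those reads gave the deposited values again. Floors of 3 reads cover counting error only. Each library's reads totalled 23206229 to 30137802.

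Pools and tumours were grouped from the labels. The labels do not say how the tumours relate. Their p-values rest on a spread pooled over the liver pools and the tumours. They do not measure the spread between the tumours alone. Tests used limma 3.58.1 in R 4.3.3 on log2(value + 1), with trend, two-sided, over the 8 pools (3 residual degrees of freedom) or all 10 libraries for tumours (4). The members, the 104 other pathway genes and the marker lists (117 genes, of which 2 matched an older symbol) were chosen with earlier results of these data known.

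Values in every library are given for the regulators, for members called with a log2 change of at least 1, and for the highest member of a role group with none. Up to 8 called members per direction and up to 4 called pathway genes with a mean of at least 10 are named per comparison. Other members named by value were chosen after their values were seen. The settings varied were the pseudocount (0.1), the filter (none, or at 10), quantile normalization, TMM, no duration term, all 10 libraries in 1 fit, leaving out each library, and the recovered reads tested by edgeR 4.0.16 or by DESeq2 1.42.0. With CCl4 on normal diet, edgeR called 3268 genes and DESeq2 3382, against 3285 by limma. The log2(value + 1) scale understates changes of low genes. Scaling by library totals was added after seeing the data. The fits were also run on simulated counts with the same spread in every library and no effect of duration. That setting differs from these data, so it does not test the calls given here.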

Additional observations from a re-analysis of the deposited data

How the results depend on the processing

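Of the 546 alternative values of called members' changes, 433 kept direction and call, 113 kept direction and lost the call, and none reversed. TMM scaling, which gave the deposited values again, is not counted. The calls kept under every other alternative run were Acot2, Acot3 and Vnn1 with CCl4 on normal diet, and Acot2 and Bdh1 with both exposures. Whichever single library was left out, 10 of 13 calls were kept with CCl4 on normal diet, none of 4 with Western diet alone, 6 of 10 with both exposures, none of 4 with CCl4 on Western diet, and none of 1 in tumours.

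Counts of called members moved as follows, without the share of all tested genes beside them. A move of the members is therefore not told apart here from a move of all tested genes. With CCl4 on normal diet 13 became 23 with quantile normalization, 25 with library totals and 3 with all 10 libraries in 1 fit. With Western diet alone 4 became 0 with no filter, 1 with quantile normalization, 1 with no duration term and 0 with all 10 libraries. With both exposures 10 became 5 with no filter, 17 with quantile normalization, 21 with library totals and 2 with all 10 libraries. With CCl4 on Western diet 4 became 0 with no filter, 7 with DESeq2, 1 with no duration term and 0 with all 10 libraries. For the interaction 0 became 1 with a pseudocount of 0.1, 1 with edgeR and 5 with DESeq2. For duration 0 became 1 with DESeq2. For tumours 1 became 2 with the stricter filter, 2 with quantile normalization, 7 with DESeq2 and 5 with no duration term. Removing the filter adds genes to the adjustment, and the single fit takes in the spread between tumours. The cause of the other shifts was not tested.

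Leaving out 1 library at a time left its group with 1 sample. A combination left with 1 pool is assumed to vary like the others. Library totals moved the median of all genes by 0.22 with CCl4 on normal diet, 0.23 with both exposures, 0.16 with CCl4 on Western diet and -0.20 in tumours. The duration term pairs the 12 and 24 week pools across groups, and the counts with no duration term are those without that pairing. Depth limits Acot3 and Cyp4a14 in tumour 2, at 6 and 23 reads.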
